A study of Bos taurus with 129 samples.

Results

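MHC class II presentation genes were followed by name through the gene count table: BOLA-DRA, BOLA-DRB3, BOLA-DQA5, BOLA-DQB, BOLA-DMA, BOLA-DMB, BOLA-DOB, CD74 and CIITA. These 9 symbols were 9 of the 32395 rows of the table, and all 9 were among the 18937 genes that passed the filter on low counts. Whole blood of 26 crossbred beef steers was sampled at enrolment (day 0) and again at days 13, 28, 45 and 60, and mRNA was sequenced in 1 library per sample; the day 13 sample of animal 48 was removed by the authors. Trace minerals (Cu, Co, Mn and Zn) were offered by pen as sulfates (INR, 11 animals), as an organic complexed source (AAC, 8 animals), or as that organic source together with an oral mineral drench (COMBO, 7 animals). All steers were vaccinated against respiratory viruses and given the dewormer doramectin on day 0, and were revaccinated between days 13 and 28. COMBO cattle were drenched before shipment, on day 0 and again with any treatment for illness, so their day 0 samples were not drawn before the drench began. The labels marked 14 animals with bovine respiratory disease (BRD: 4 AAC, 3 COMBO and 7 INR) and 12 without (healthy: 4 in each mineral group), and they gave no day of diagnosis. The ages of the steers are not given in the sources used here, the study did not know the steers' earlier health, and steers were rotated between pens during the trial.

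Class II molecules are heterodimers of an alpha and a beta chain that carry peptides from the endosome to the surface of B cells, monocytes, macrophages and dendritic cells, where CD4 T cells read them. CD74, the invariant chain, fills the groove of a new dimer until the DM dimer (BOLA-DMA with BOLA-DMB) exchanges the remnant of CD74 for peptide, and the DO dimer, of which BOLA-DOB is the beta chain, holds DM back. CIITA is the transcriptional coactivator on which expression of the whole set depends, and cattle carry DR and DQ as their classical class II molecules, with the DQ genes present in varying copy number between animals.

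The libraries held between 31613545 and 61692136 counts each, with a median of 44268685, and TMM factors ran from 0.906 to 1.09, so that 3 counts corresponded to between 0.0486 and 0.0949 CPM. CPM here are counts scaled to a common library size after TMM normalisation, and all levels below are in this unit. CPM is not corrected for gene length, so genes were not ranked by their level. Levels of a gene, and the ratios and sums of genes, were compared between samples. As these were bulk libraries of whole blood, fewer cells of a type and less RNA per cell cannot be told apart for any gene named here.

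CIITA and both DR chains rose late in the 60 days, while BOLA-DMB and BOLA-DOB fell at day 13 and CD74, BOLA-DMA and BOLA-DQB were not called at any day. In edgeR's quasi-likelihood test with animal as a block and an FDR threshold of 0.10 over all genes, 12 of 36 changes of the members from day 0 were called. At day 13, 2 of 9 members were called, both lower, where 32.23% of all genes tested were called (16.92% higher and 15.31% lower). At day 28, 1 was higher and 1 lower, where 35.84% of all genes were called (18.51% higher and 17.33% lower). At day 45, 3 were higher and 0 lower, where 29.9% were called (15.30% higher and 14.6% lower). At day 60, 3 were higher and 2 lower, where 32.54% were called (16.61% higher and 15.94% lower). Median log2 fold changes of the members were -0.09, 0.01, 0.27 and 0.12 at the 4 days, and those of all genes lay within 0.0081 of 0. Within the labels, the percentages of all genes called were 10.95%, 20.98%, 8.555% and 11.64% in healthy cattle and 17.43%, 20.05%, 22.51% and 19.62% in BRD cattle at days 13, 28, 45 and 60, where 3, 1, 2 and 1 members and 2, 1, 3 and 3 members were called.

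The DR chains were the steadiest of the classical chains. BOLA-DRA, the alpha chain, had a median of 1777 CPM over all libraries, with a lowest value of 1115 and a highest of 3511. At day 0 it ran from 1251 through a median of 1756 to 2417 CPM, and at day 45 from 1433 through 2099 to 3511 CPM. Most animals were higher at day 45 than at their own day 0, although the ranges of both days overlapped: 22 of 26 lay above their day 0 value and 4 below it. BOLA-DRB3, the main expressed DR beta chain of cattle, had medians of 838 CPM at day 0 (540 to 1219) and 1031 CPM at day 45 (756 to 1402). It was above the day 0 value in 21 of 26 animals at day 45 and in 19 of 26 at day 60.

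Both DR chains rose at day 45. In the edgeR fit, BOLA-DRA was higher than at day 0 by a log2 fold change of 0.27 (SE 0.061, FDR = 0.000384) and BOLA-DRB3 by 0.30 (SE 0.063, FDR = 0.000115). At day 60 BOLA-DRB3 was still higher by 0.18 (FDR = 0.026), whereas BOLA-DRA stood at 0.13 (FDR = 0.116) and did not pass the threshold of 0.10. Neither chain was called at day 13, with log2 fold changes of -0.09 and -0.08, or at day 28, with 0.01 and 0.03. Within the disease labels, the day 45 rise of BOLA-DRB3 passed in healthy cattle (0.26, FDR = 0.0717) and in BRD cattle (0.34, FDR = 0.00259), while that of BOLA-DRA passed in BRD cattle (0.32, FDR = 0.00295) and not in healthy cattle (0.22, FDR = 0.156). The difference between the labels in the change of BOLA-DRA was not called at any day.

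**Figure D1:**
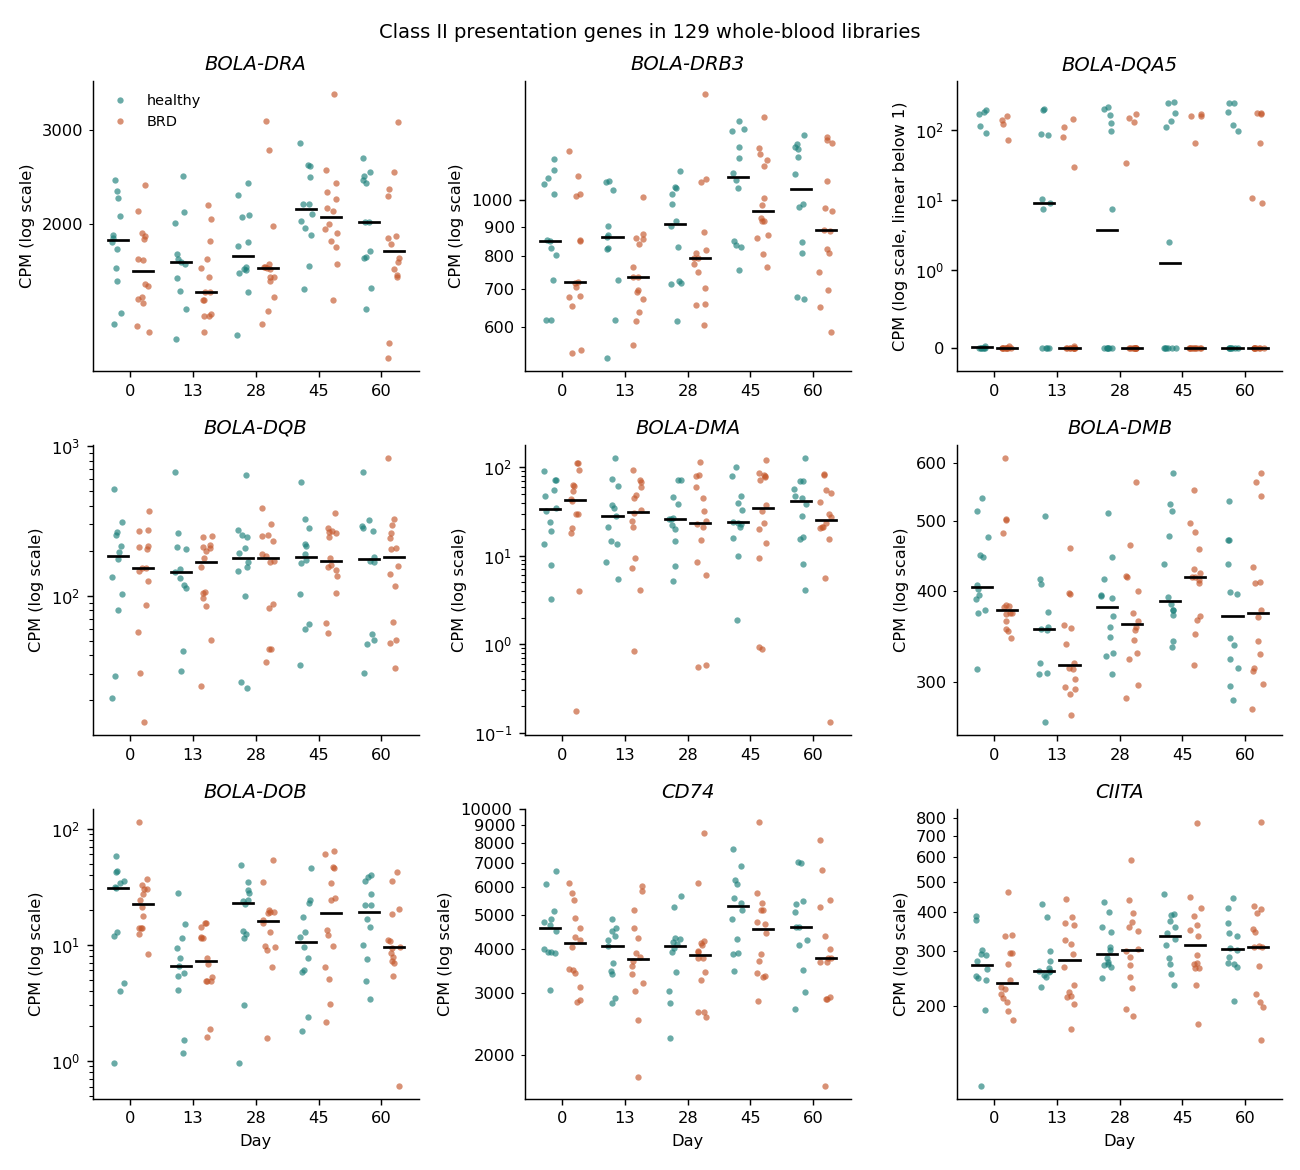
CPM of the 9 genes (log axes; the BOLA-DQA5 axis is linear below 1) against day, with each point a library of a healthy (green) or BRD (orange) steer and each bar the median of that label at that day. BOLA-DRA and BOLA-DRB3 medians are highest at day 45, BOLA-DOB medians are lowest at day 13 in both labels, and BOLA-DQA5 has many libraries at 0, a few up to 10.7 CPM and the others from 29.5 to 249.8 CPM.

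The ratio of BOLA-DRB3 to BOLA-DRA differed between animals and little between days. Over all libraries the ratio of their CPM ran from 0.342 to 0.662, with a median of 0.502. Animal 10 had the lowest mean ratio, 0.359, and animal 34 the highest, 0.641. Within an animal the highest library exceeded the lowest by a median of only 1.07-fold, against 1.78-fold between the lowest and highest animal means. Differences among animals held 96.6% of the sum of squares of the log2 ratio and differences among days 0.66%. For BOLA-DRA alone the shares were 50.2% among animals and 15.97% among days. After each animal's mean was subtracted, the log2 CPM of both chains had a Pearson r of 0.99 over all libraries, and the animal means had an r of 0.58 over 26 animals. These are descriptions of libraries that share their depth scaling. BOLA-DRB3 is highly polymorphic, and reads were aligned to a single reference genome, so whether the ratio follows alleles or RNA was not tested.

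**Figure D2:**
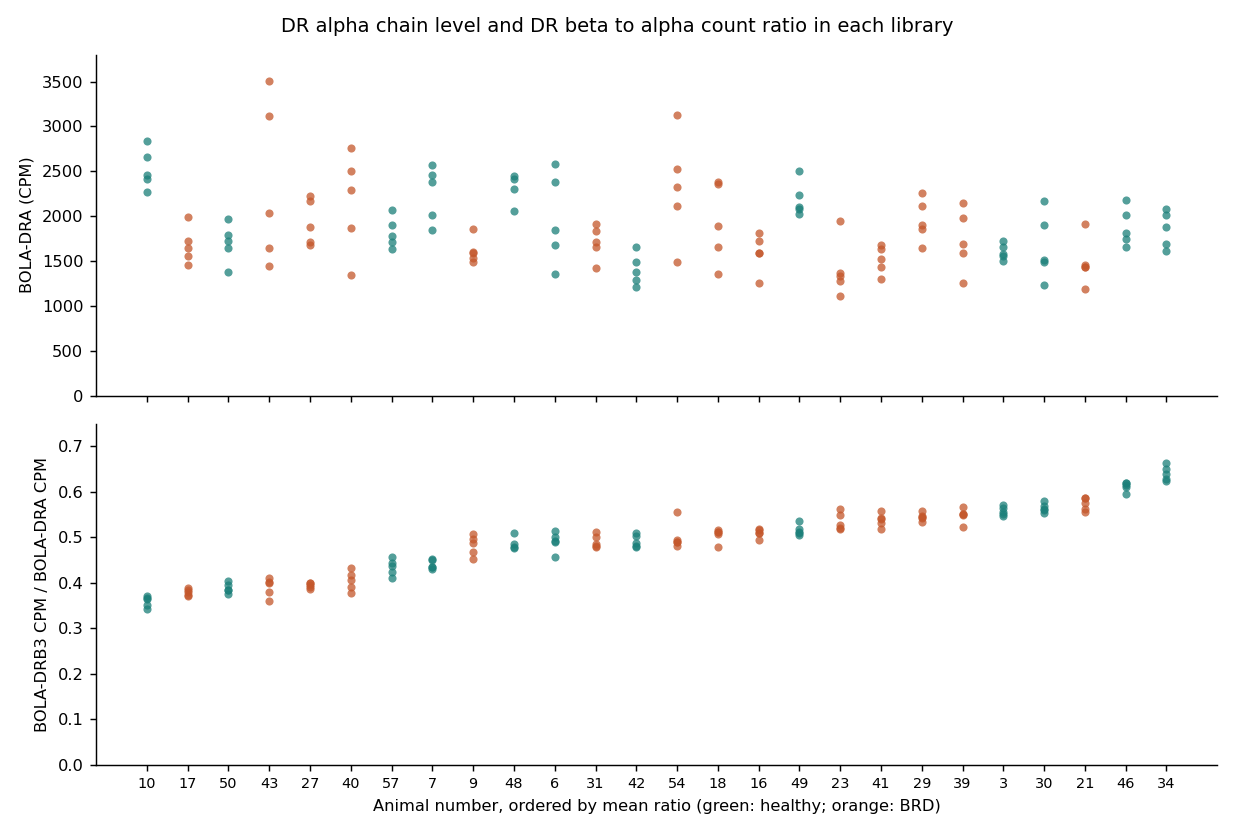
BOLA-DRA CPM (upper panel) and the ratio of BOLA-DRB3 CPM to BOLA-DRA CPM (lower panel) in each library, with animals ordered by their mean ratio, healthy in green and BRD in orange. The ratios of an animal lie close together, from about 0.359 in animal 10 to 0.641 in animal 34, while BOLA-DRA spreads widely within most animals and both labels lie along the whole order.

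The DQ rows differed widely between animals. BOLA-DQA5, a DQ alpha chain, had 0 counts in every library of 11 animals (55 libraries) and counts in every library of 9 animals, numbers 9, 10, 21, 29, 42, 46, 48, 50 and 54. In the 44 libraries of those 9 animals it ran from 29.5 to 249.8 CPM with a median of 152.2, and the lowest library held 1265 counts. A count of 0 allows up to 3 counts, at most 0.0949 CPM in the shallowest library. The 9 animals included 4 of 14 BRD and 5 of 12 healthy steers, and 4 from AAC, 2 from COMBO and 3 from INR. The remaining 6 animals had counts in 10 of 30 libraries, none above 10.7 CPM. Animal 3 was at 0 on days 0 and 60 and at 7.34, 7.57 and 2.51 CPM on days 13, 28 and 45. Animals 6 and 30 reached 10.3 and 9.04 CPM at day 13, and animals 16 and 18 reached 10.7 and 8.94 CPM at day 60. Among animals lay 93.25% of the sum of squares of its log2 CPM, a larger share than in 99.4% of the genes tested.

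BOLA-DQB, a DQ beta chain, was detected in every library, from 14.34 to 833.7 CPM with a median of 171.9. Its animal means ran from 51.8 CPM in animal 30 to 614.9 CPM in animal 10, an 11.9-fold range. Animal 10 was high throughout, between 514.1 and 674.4 CPM. The highest single library was animal 40 at day 60, 833.7 CPM, against 50.6 to 254.7 CPM in its other libraries. The study named that library for its low RNA integrity. The other DQ beta row, BLA-DQB, was low there, at 267.8 CPM against 454.3 to 791.7 CPM in the other libraries of animal 40. The sum of both rows was 1102 CPM there, against 504.9 to 1046 CPM. BLA-DQB, which the RefSeq table (assembly ARS-UCD2.0) lists as a synonym of BOLA-DQB1, is a separate row outside the 9 members and was at 0 in every library of 4 animals. In 4 others, animals 3, 10, 31 and 39, BLA-DQB was at 0 in some libraries and not in others.

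The split between both DQ beta rows changed over the days in those animals and in some others. In animal 3, BOLA-DQB read 265.5, 31.5, 273.8, 102.9 and 269.1 CPM over the 5 days, and BLA-DQB read 0, 227.0, 0.02, 149.2 and 0.022 CPM. The sums were 265.5, 258.6, 273.8, 252.1 and 269.1 CPM, so the split changed while the sum stayed close. In the others the sum moved as well, from 637.0 to 725.8 CPM in animal 10, from 87.3 to 135.3 CPM in animal 31 and from 207.6 to 355.2 CPM in animal 39. Differences among animals held 70.6% of the sum of squares of log2 CPM for BOLA-DQB, 86.04% for BLA-DQB and 93.5% for the log2 of their summed CPM. DQ genes are close paralogs, so the levels of single DQ rows are uncertain, and how reads were divided between them was not tested.

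**Figure D3:**
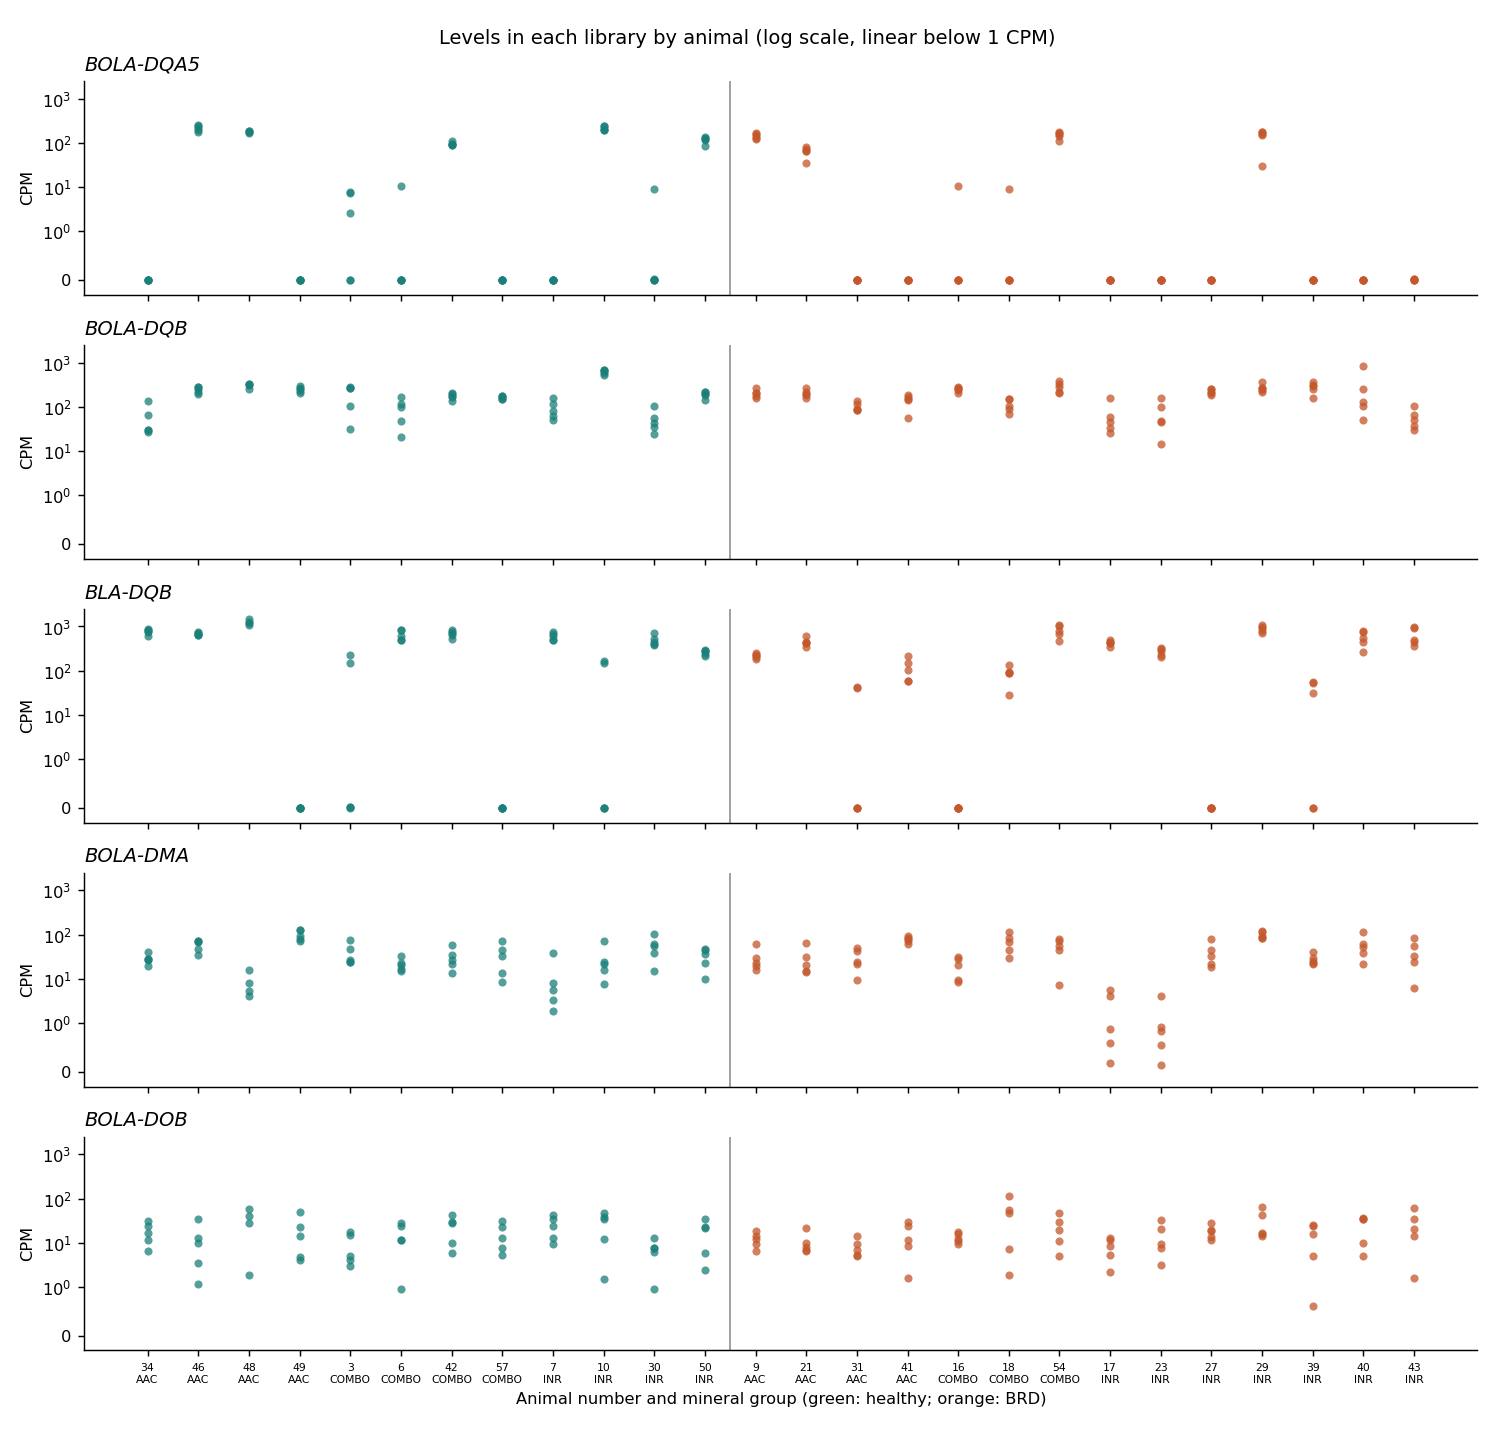
CPM of BOLA-DQA5, BOLA-DQB, BLA-DQB, BOLA-DMA and BOLA-DOB in each library (log scale, linear below 1 CPM) by animal, healthy in green on the left and BRD in orange on the right, with the mineral group under each animal number. BOLA-DQA5 and BLA-DQB are at 0 throughout some animals and high throughout others, BOLA-DMA is lowest in animals 17 and 23, and BOLA-DOB spreads widely within almost every animal.

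Of the DQ rows, BOLA-DQB was not called at any day, with log2 fold changes from day 0 between 0.02 and 0.27. BOLA-DQA5 was called at day 60 (log2 fold change 1.82, SE 0.72, FDR = 0.0538), but 13 of 26 animals had the same value on both days and 10 were higher. That call was lost when animal 16 or animal 18 was left out, with values of 0.98 and 1.06. Both are BRD steers, and in BRD cattle alone the value was 3.46 (FDR = 0.0412). In healthy cattle alone BOLA-DQA5 was called at day 13 (3.55, FDR = 0.0401), the day on which animals 3, 6 and 30 held their highest or near-highest values. Where an animal's other libraries are at 0 these fitted values depend on the prior count and are no measure of size.

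The DM chains behaved differently from each other. BOLA-DMB, the beta chain, was even: 264.5 to 610.6 CPM over all libraries, with a median of 376.8. It had a median of 386.4 CPM at day 0 (312.9 to 610.6) and 338.6 CPM at day 13 (264.5 to 508.1), and 21 of 25 animals were lower at day 13. It fell by 0.26 on the log2 scale at day 13 (SE 0.053, FDR = 0.000128) and by 0.14 at day 28 (FDR = 0.0309). At day 60 it fell by 0.12 (FDR = 0.0894), a call that was lost when any of 16 animals was left out, and at day 45 it stood at 0.02 and was not called. The day 13 decrease was called in healthy cattle (-0.22, FDR = 0.0779) and in BRD cattle (-0.30, FDR = 0.00208).

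BOLA-DMA, the alpha chain, ran from 0.132 to 127.6 CPM with a median of 29.9. Animal 23 stayed between 0.132 and 4.01 CPM and animal 17 between 0.174 and 5.56 CPM, whereas animal 49 stayed between 71.7 and 127.6 CPM and animal 29 between 81.5 and 119.9 CPM. Animal means ran from 1.29 to 99.4 CPM, a 77.1-fold range, against 1.68-fold for BOLA-DMB. Differences among animals held 76.1% of the sum of squares of log2 CPM for BOLA-DMA and 49.1% for BOLA-DMB. Over all libraries, after animal means were subtracted, r between the DM chains was 0.16. BOLA-DMA was not called at any day, with log2 fold changes from -0.42 to -0.22 and standard errors of 0.27 to 0.28. BOLA-DMA and BOLA-DMB are neighbouring genes in the RefSeq table.

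Of the members called at day 13, BOLA-DOB fell most steeply. At day 0 it ran from 0.953 through a median of 25.7 to 114.5 CPM, and at day 13 from 1.16 through 6.82 to 27.7 CPM, with 20 of 25 animals lower. The highest day 0 library was animal 18, at 114.5 CPM, and the same animal read 1.87 CPM at day 13. The exceptions at day 13 included animals 3 and 6, which went from 3.97 to 14.9 CPM and from 0.953 to 11.4 CPM. BOLA-DOB fell by 1.46 on the log2 scale at day 13 (SE 0.35, FDR = 0.00109), by the same amount in healthy (-1.46, FDR = 0.0781) and BRD cattle (-1.46, FDR = 0.0256), and each leave-one-out fit over 26 animals kept the call. Values of -0.56 at day 28 (FDR = 0.208) and -0.62 at day 45 (FDR = 0.194) did not pass, and it fell by 0.78 at day 60 (FDR = 0.0739), a call that was lost without any of animals 18, 34, 39, 42 and 46.

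BOLA-DOB also had the smallest share of variance among animals of the 9 genes. The highest library of an animal exceeded its lowest by a median of 8.54-fold, against 1.34-fold for BOLA-DMB and 1.37-fold for BOLA-DRA. Differences among animals held 16.96% of its sum of squares, a share below that of all but 2.34% of the genes tested, and differences among days held 12.6%. The remainder lay between libraries of the same animal without following the day. With 1 library per sample, RNA and measurement cannot be told apart in that remainder.

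CD74, the invariant chain, was not called at any day. It had medians of 4282 CPM at day 0 (2817 to 6656), 3782 at day 13 (1727 to 6044), 3931 at day 28 (2234 to 8552), 4802 at day 45 (2835 to 9197) and 4175 at day 60 (1632 to 8174). The ranges overlapped at every day, and 17 of 26 animals were above their day 0 value at day 45. Log2 fold changes were -0.16, -0.16, 0.15 and -0.02 at days 13, 28, 45 and 60, with a standard error of 0.097 to 0.099 and FDR values from 0.224 to 0.917. The 95% interval at day 45 ran from -0.04 to 0.34 and so included the changes called for the DR chains.

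CIITA, the coactivator, rose at 3 of the 4 later days. Its median was 255.8 CPM at day 0 (110.8 to 463.8), 264.9 at day 13, 300.0 at day 28 (186.0 to 585.6), 331.4 at day 45 (174.8 to 773.0) and 308.9 at day 60 (155.7 to 779.1). It was above the day 0 value in 21 of 26 animals at day 28, in 22 at day 45 and in 21 at day 60. The log2 fold changes were 0.24 (FDR = 0.000369), 0.33 (FDR = 2.54e-06) and 0.25 (FDR = 0.000236), each with an SE of 0.055 to 0.056. At day 13 the value was 0.11 (FDR = 0.139) and was not called. All 3 rises were called in healthy cattle (0.23, 0.32 and 0.24) and in BRD cattle (0.26, 0.33 and 0.26), and every leave-one-out fit over the 26 animals kept them. Animal 43, a BRD steer of the INR group, read 335.5, 441.5, 585.6, 773.0 and 779.1 CPM over the 5 days, the highest values of the table from day 13 on. The lowest of the leave-one-out values for day 45 was 0.27, without animal 6, whose day 0 library was the lowest of all at 110.8 CPM.

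**Figure D4:**
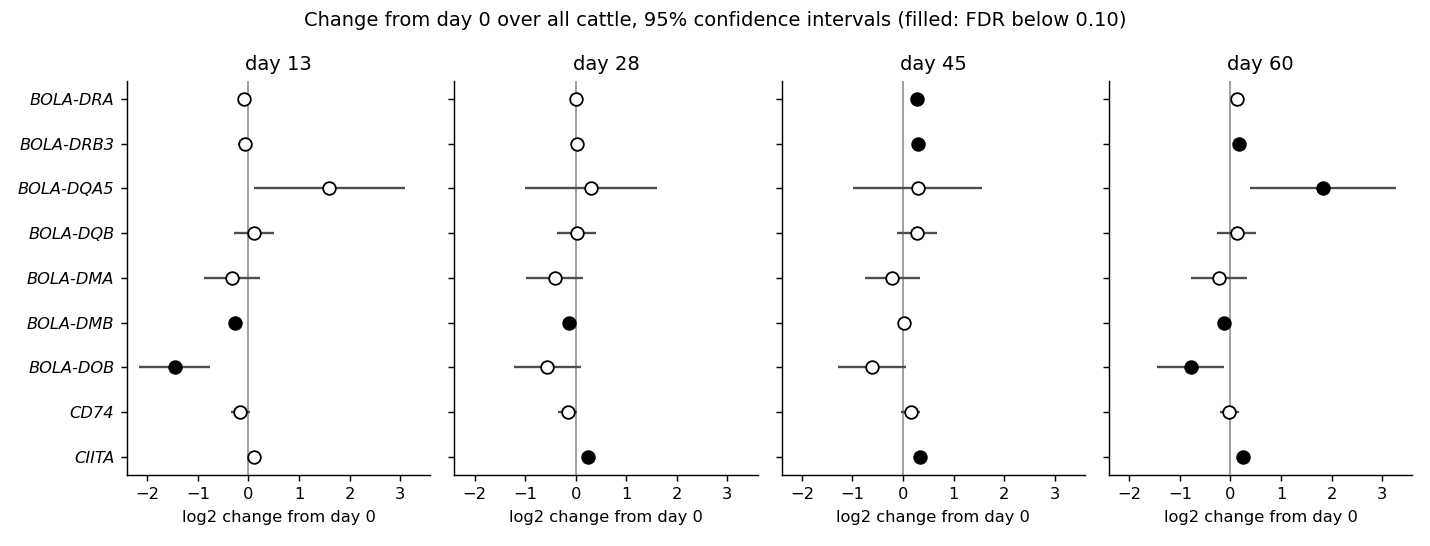
Log2 change from day 0 of each gene at days 13, 28, 45 and 60 over all cattle, with 95% confidence intervals from the fit with animal as a block; filled points passed an FDR of 0.10. CIITA lies above 0 at days 28, 45 and 60, BOLA-DOB lies 1.46 below 0 at day 13, CD74 is open at every day, and the BOLA-DQA5 intervals are the widest.

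Within animals, CD74, CIITA and BOLA-DMB each followed the DR chains more closely than they followed each other. After each animal's mean was subtracted, r of log2 CPM over all libraries was 0.76 between BOLA-DRA and BOLA-DMB, 0.74 between BOLA-DRA and CD74, 0.73 between BOLA-DRA and CIITA, and 0.49 between CD74 and CIITA. With BOLA-DRB3, r was 0.74 for BOLA-DMB, 0.73 for CD74 and 0.78 for CIITA. BOLA-DMB had an r of 0.53 with CD74 and of 0.45 with CIITA. That last value was close to the 0.44 of BOLA-DQB with BOLA-DRA. In the tests of change since enrolment, BOLA-DMB was called lower and CIITA higher. BOLA-DQA5, BOLA-DMA and BOLA-DOB stood apart, with r against BOLA-DRA of -0.04, 0.31 and 0.22. Between animal means over 26 animals, r was 0.92 for BOLA-DRA with CD74 and 0.84 for CD74 with CIITA. Among genes outside the set, those with the highest r to BOLA-DRA were TMEM109, RIN3, NSMAF, ORAI3 and TFEB, from 0.82 to 0.84. For CD74 they were ORAI3, TMEM109, PTPRCAP, RXRB and MRPS12, from 0.75 to 0.76. For CIITA they were CERS4, MYO1C, PALM, SCIMP and POU2F2, from 0.88 to 0.90. The libraries behind these values share their animals, days and depth scaling, so they are given as descriptions.

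Genes that work with the members changed in both directions. Over all genes tested, 32.23%, 35.84%, 29.9% and 32.54% were called at days 13, 28, 45 and 60. Counts near or below that share are not particular to a list. Of 14 factors that act on class II promoters or on CIITA, 3 rose and 3 fell at day 13, 3 rose and 3 fell at day 28, 8 rose and 1 fell at day 45, and 5 rose and 2 fell at day 60. RFX5, the DNA-binding subunit of the RFX complex, rose by 0.17, 0.25, 0.26 and 0.26 at the 4 days, and CREB1, which binds the X2 box, by 0.13, 0.14, 0.27 and 0.26. PRDM1, which represses CIITA in plasma cells, fell by 0.20, 0.35, 0.20 and 0.29 on the log2 scale. EZH2 rose by 0.26, 0.25, 0.13 and 0.16, and the B cell factors SPIB and PAX5 rose by 0.31 and 0.30 at day 45. Of 10 genes on the interferon-gamma route to CIITA, 2, 5, 2 and 2 were called, and SOCS1, an inhibitor of that route, fell by 0.70, 1.16, 0.74 and 0.93. IFNGR1 fell by 0.25 at day 13, 0.28 at day 28 and 0.16 at day 60, and JAK1 fell by 0.09 at day 28. IRF1 rose by 0.41 at day 45.

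Endosomal processing genes changed in both directions, with more called lower than higher at each day. Of 17 tested, 1 rose and 7 fell at day 13, 3 rose and 8 fell at day 28, 3 rose and 6 fell at day 45, and 1 rose and 6 fell at day 60, where between 14.6% and 17.33% of all genes fell. At day 45 the median log2 fold change of the 17 was 0.05 and 11 had a positive value. The proteases CTSB and CTSH fell at all 4 days, CTSB by 0.53, 0.53, 0.36 and 0.50 and CTSH by 0.53, 0.57, 0.35 and 0.47. The lysosomal membrane protein LAMP1 fell by 0.37, 0.44, 0.29 and 0.47, while the protease CTSZ rose by 0.32, 0.38, 0.40 and 0.31. Of 10 costimulatory molecules and class II ligands, 1 rose and 2 fell at days 13 and 28, 3 rose and 1 fell at day 45, and 1 rose and 1 fell at day 60. CD40 rose by 0.33, 0.39, 0.44 and 0.43, and ICOSLG fell by 0.23, 0.39, 0.22 and 0.31. CD80 fell by 0.21 and 0.26 at days 13 and 28, and CD86 rose by 0.22 at day 45. Beside this list and those that follow, 32.23%, 35.84%, 29.9% and 32.54% of all genes were called in either direction. Of 7 other class II locus genes, 1, 2, 3 and 2 were called: BOLA-DYB fell by 0.23, 0.45, 0.30 and 0.24, DSB fell by 0.30 and 0.25 at days 28 and 45, and BOLA-DRB2 rose by 0.53 and 0.43 at days 45 and 60. Of 13 class I pathway genes set beside them, 1 fell at day 13 (TAP2, -0.18), 2 fell at day 28 (JSP.1, -0.13, and PDIA3, -0.12), 3 rose at day 45 (NLRC5, 0.20, ERAP1, 0.16, and TAP1, 0.14), and 0 were called by edgeR at day 60, where 0 had an unadjusted p below 0.05.

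Markers of cells that carry class II were called as well, the B cell list most often at day 45. The 16 B cell markers summed to a median of 2907 CPM at day 0 (1100 to 5356) and 3639 CPM at day 45 (1410 to 6589), with 4, 6, 10 and 6 called higher at days 13, 28, 45 and 60 and 1 called lower, at day 45. CR2 rose by 0.26, 0.50, 0.61 and 0.74, CD72 by 0.31, 0.41, 0.31 and 0.32, and BANK1 by 0.24, 0.43 and 0.46 from day 28 on. CD22 rose by 0.29 at day 28 and 0.34 at day 45, and FCRLA by 0.36 at days 45 and 60. BLK rose by 0.14 at day 13 and fell by 0.29 at day 45. CD79A was called at day 45 only among the 4 days (0.13), and MS4A1 at days 28 and 60 (0.19 and 0.18). The 12 monocyte markers summed to a median of 1990 CPM at day 0 (1113 to 4138) and between 1415 and 1643 CPM later, with 5, 6, 4 and 7 called lower and 1 called higher, SIRPA at day 45. CD163 fell by 1.72, 1.76, 1.65 and 1.69, CD14 by 1.17, 1.25, 1.18 and 1.45, VCAN by 1.18, 1.12, 1.16 and 1.18, and CSF1R by 0.20 at day 28 and 0.29 at day 60. FCGR1A, with a median of 0.74 CPM at day 0, fell by 0.98, 1.27, 1.55 and 1.32. The decreases of CD163 and VCAN were of similar size at all 4 days. No marker of either list was at 0 in all libraries of a day. The part of these cell types in the values of BOLA-DRA, BOLA-DRB3, BOLA-DMB, BOLA-DOB and CIITA was not tested.

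Other cell lists were measured in the same way, beside 32.23%, 35.84%, 29.9% and 32.54% of all genes called at days 13, 28, 45 and 60. Of 12 dendritic cell markers, 2 rose and 2 fell at day 13, 3 and 3 at day 28, 3 and 2 at day 45, and 2 and 3 at day 60. CLEC10A fell by 0.91, 1.28, 0.91 and 1.09 and BATF3 by 0.70, 0.72, 0.52 and 0.61, while FCER1A rose by 0.95, 0.78, 0.85 and 0.74 and CD1B by 0.61 at day 45. FLT3 and CLEC9A, at medians of 3.66 and 0.182 CPM on day 0, were not called. Of 12 T cell markers 1, 2, 3 and 1 were called: TRAT1 fell by 0.22 and 0.26 at days 13 and 28, CCR7 by 0.26, 0.21 and 0.22 from day 28 on and CD2 by 0.15 at day 45, CD8B rose by 0.23 at day 45, and CD3E was not called. Of 7 NK markers 4, 4, 5 and 2 were called, with NCR1 lower by 0.47, 0.55 and 0.39 and KLRF1 by 0.33, 0.71 and 0.41 at days 13, 28 and 45, PRF1 lower by 0.49 at day 28, GZMB higher by 0.58, 0.56 and 0.55 at days 13, 45 and 60, and TBX21 higher by 0.24 at day 60. Of 9 neutrophil markers 5, 6, 3 and 5 were called, all lower, among them S100A12 by 0.82, 0.92, 0.77 and 0.99, S100A8 by 0.86, 0.86, 0.71 and 0.88, and S100A9 by 0.76, 0.88, 0.80 and 0.99. CSF3R had no row under that symbol. Of 10 erythroid and platelet markers 9, 8, 7 and 8 were called, all higher, with HBA1 at 4.97, 3.94, 4.70 and 3.19, HBA at 3.98, 3.25, 3.502 and 2.44, HBB at 3.61, 2.66, 3.66 and 2.35, and ALAS2 at 2.91 at day 28. The erythroid and platelet sum had a median of 765.3 CPM at day 0 and 6907 CPM at day 13, and its highest library reached 85095 CPM; its part in the CPM of the members was not tested.

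The second question of the design was whether cattle labelled with BRD differed from healthy cattle. At every day the labels overlapped for all 9 genes. BOLA-DRA medians were 1624 CPM in BRD and 1862 CPM in healthy cattle at day 0, 1486 and 1695 at day 13, 1648 and 1734 at day 28, 2056 and 2128 at day 45, and 1777 and 2011 at day 60. BOLA-DRB3 medians were 719.4 and 850.5 CPM at day 0, and 957.5 and 1100 CPM at day 45, in BRD and healthy cattle. CD74 medians were 4568 CPM in BRD (2835 to 9197) and 5288 CPM in healthy cattle (3457 to 7701) at day 45, and CIITA medians were 313.4 and 334.5 CPM. The BRD median was the lower for BOLA-DRA, BOLA-DRB3 and CD74 at all 5 days.

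No member was called between the labels. Of 45 tests (9 members at 5 days), 0 passed an FDR of 0.10 and 0 had an unadjusted p below 0.05 in edgeR's quasi-likelihood test; DESeq2 and limma voom also called 0 members. Among all genes 3, 0, 1, 0 and 1 were called at days 0, 13, 28, 45 and 60, or 0.01584%, 0%, 0.005281%, 0% and 0.005281%. At day 45 the log2 difference of CD74 was -0.28 (95% interval -0.59 to 0.03) and that of BOLA-DRA was -0.05 (-0.28 to 0.18). CIITA differed by between -0.07 and -0.01 over the 5 days, with interval bounds between -0.36 and 0.28. For BOLA-DQA5 the intervals reached from -4.99 to 3.13, so differences of many fold were not detectable. On the counts summed over the days of each animal, 0 of 9 members were called and 0 had an unadjusted p below 0.05, where 0% of 20640 genes were called, with BOLA-DRA at -0.12 (-0.31 to 0.07) and CD74 at -0.14 (-0.37 to 0.09).

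**Figure D5:**
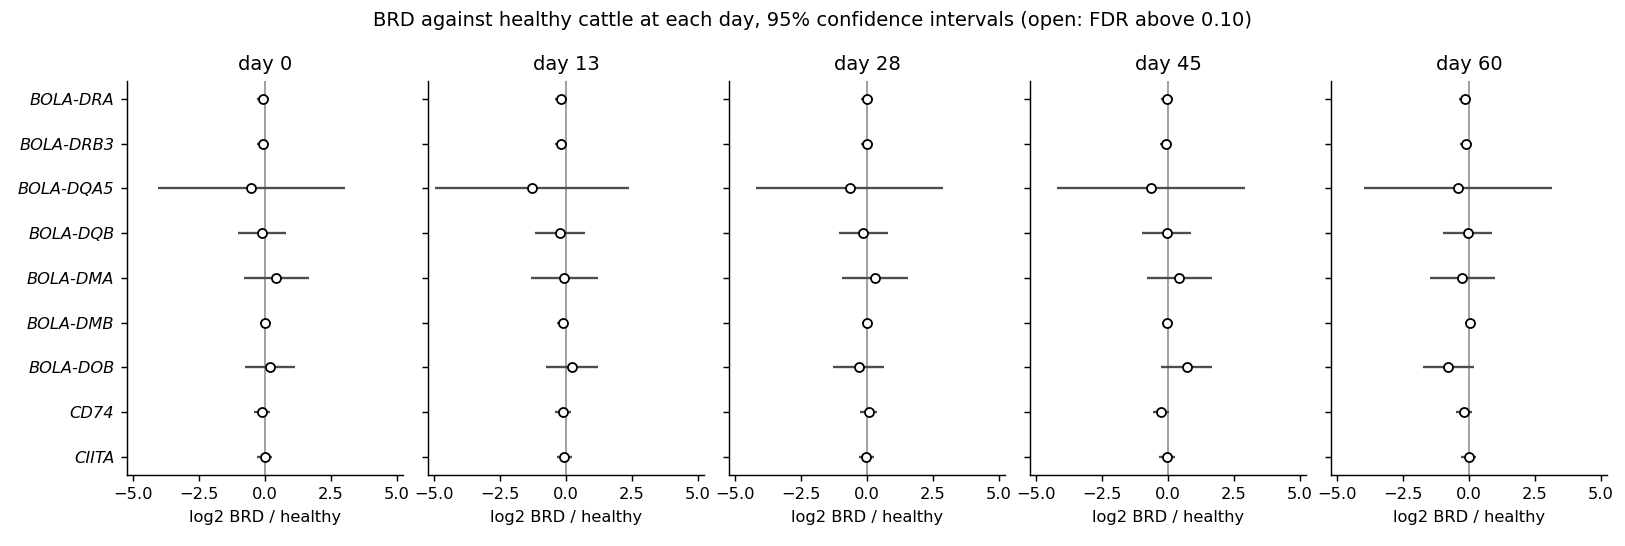
Log2 difference of BRD from healthy cattle for each gene at each day, averaged over mineral groups, with 95% confidence intervals; open points did not pass an FDR of 0.10. All points are open, the DR chains, BOLA-DMB, CD74 and CIITA have narrow intervals around 0, and the BOLA-DQA5 intervals reach several log2 units to either side.

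Pens bore on this comparison, because 3 of 7 pens held a single label. The 4 pens with both labels (7 BRD and 8 healthy animals) held AAC and INR cattle only. Each COMBO pen held a single label, as did INR pen 7 with its 4 BRD animals, so none of their animals entered this fit. The fit had pen as a term and took each day alone. At day 0 the differences of CIITA and the DR chains were larger there than in all pens. The part of the missing COMBO cattle and of the missing INR cattle of pen 7 in the larger values was not tested. At day 0 CIITA was lower in BRD cattle by a log2 difference of -0.47 (SE 0.12, unadjusted p = 0.00222, FDR = 0.12), BOLA-DRB3 by -0.37 (FDR = 0.152) and BOLA-DRA by -0.35 (FDR = 0.171) in edgeR's quasi-likelihood test. The values in all pens were -0.01, -0.07 and -0.10. At day 13 the same 3 genes stood at -0.44, -0.39 and -0.33, with BOLA-DQB at -1.08 and BOLA-DMB at -0.27, each with an unadjusted p below 0.05 and FDR values between 0.394 and 0.5. No member was called in these pens at any day, where 0.04958%, 0.006226%, 0.006068%, 0% and 0% of all genes tested were called at days 0, 13, 28, 45 and 60. At days 28, 45 and 60, 0 members had an unadjusted p below 0.05. On the counts summed over the days of each animal in these pens, 9 of 9 members had negative values and 0 were called, where 0.02078% of all genes were called. The share of all genes with negative values is not given here. Some members go together across animals, such as BOLA-DRA and CD74 (r of 0.92 between animal means). Their like signs are therefore not separate observations. BOLA-DRB3 alone had an unadjusted p below 0.05 (-0.30, SE 0.10, unadjusted p = 0.0124, FDR = 0.203), with CIITA at -0.37 (FDR = 0.338) and CD74 at -0.33 (FDR = 0.34). Day 0 was the day of enrolment, and the labels do not say which animals were already ill.

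The change from day 0 did not differ by label in any member. Of 36 tests of the change in BRD minus that in healthy cattle, 0 were called in edgeR and 2 had an unadjusted p below 0.05, and 0% of all genes were called at each of the 4 days. DESeq2 called 2, both BOLA-DQA5, at days 13 and 60, the days on which single libraries of animals otherwise at 0 held counts.

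The third question was whether the mineral groups differed. BOLA-DRA medians at day 45 were 1970 CPM in AAC, 1901 in COMBO and 2174 in INR, and CIITA medians were 292.5, 341.7 and 335.4 CPM; the ranges of the 3 groups overlapped. CD74 medians at day 13 were 3888 CPM in AAC (3040 to 4344), 3206 in COMBO (1727 to 4503) and 4585 in INR (2515 to 6044). Of 135 tests over 3 pairs and 5 days, 0 members were called in edgeR, DESeq2 or limma voom, and 8 had an unadjusted p below 0.05. The percentages called over all genes were largest for AAC against COMBO, 0.565% at day 0, 0.9294% at day 13 and 0.03168% at day 28. For AAC against INR they were 0.04225% at day 13 and 0.01056% at day 28, for COMBO against INR 0.005281% at day 60, and for the other pairs and days 0%. Among the 8, the smallest FDR was that of BOLA-DRB3 in AAC against COMBO at day 13 (0.34, SE 0.15, FDR = 0.318). CD74 in COMBO against INR stood at -0.46 at day 13 (SE 0.19, FDR = 0.854), and CIITA in AAC against INR at -0.36 and -0.34 at days 28 and 45 (FDR = 0.73 and 0.878). None of these passed after adjustment over all genes. On counts summed over days 13 to 60 of each animal, 0 of 27 tests were called and 0 had an unadjusted p below 0.05, where 0% of 20291 genes were called for each pair; CIITA in AAC against INR was -0.33 (95% interval -0.69 to 0.03). Minerals were given by pen, so pen of enrolment and mineral group cannot be told apart.

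Shares of the variation among animals and among days were set beside those of all genes, because 26 animals take a larger share than 5 days by their number alone. The median share of the sum of squares of log2 CPM among animals was 51.4% over the 9 members and 42.1% over all genes tested, and the median share among days was 8.87% and 5.66%. BOLA-DQA5, BOLA-DMA, CIITA and BOLA-DQB had the largest shares among animals, 93.25%, 76.1%, 73.6% and 70.6%. BOLA-DRB3, BOLA-DRA, BOLA-DMB and CD74 followed with 51.4%, 50.2%, 49.1% and 40.7%. By the log2 CPM of the 7 BOLA members, the nearest other library came from the same animal for 35 libraries, where 3.09% of all libraries would be expected if animals were unrelated, and for 69 libraries when BOLA-DQA2 and BLA-DQB were added.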

How the data were processed

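The authors trimmed reads with Trimmomatic 0.39, aligned them to ARS-UCD1.3 with HISAT2 (2.1.1 in the submitters' processing notes), assembled transcripts with StringTie 2.2.0 and deposited raw gene counts from prepDE, with 0 columns of other samples. Libraries were stranded; how reads shared by paralogs were counted is not given in the sources used here. Counts were scaled by TMM and tested with edgeR 4.0.16 (quasi-likelihood, common dispersion, FDR below 0.10 over all genes kept by filterByExpr), with 1 fit holding animal as a block for days and 1 holding a mean for each mineral group, label and day. In the latter, libraries of an animal were treated as independent, so counts summed per animal were also tested. Same-animal libraries correlated in their deviations from the label and day means (median r 0.376, 256 pairs; -0.0169 between animals), the pairing coming from the animal numbers. Shares of variance used log2 CPM with a prior count of 2. Alternatives used DESeq2 1.42.0 and limma 3.58.1. The fits were tested on simulated counts. All 9 members are named by rule, as are the 3 largest called changes of each list at each day, fixed defining markers (1 of them is not reported here) and the 5 genes most like BOLA-DRA, CD74 and CIITA; BLA-DQB, BOLA-DQA2, and the values of BLK and SIRPA given at other days, were chosen after their values were seen; members and lists were chosen with earlier results of these data known. Sequences and coordinates were not used here.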

Additional observations from a re-analysis of the deposited data

Results flagged for a closer look

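Animal means were compared within the 5 mineral group and label groups of 4 to 7 animals, 45 groups of values in all. In 4 of them an animal stood far from the others, where normally distributed values give about 1 in 20. BOLA-DQA5 values are not of that kind: 9 animals had counts in every library and the others were at or near 0. A group with a single such animal is flagged by that pattern alone, and animals 42 and 29 belong to those 9. BOLA-DQA5 averaged 95.98 CPM in animal 42 among healthy COMBO cattle, against at most 3.48 CPM in the other 3, and 136.2 CPM in animal 29 among BRD cattle of INR, against at most 0.00927 CPM in the other 6. BOLA-DMA averaged 77.4 CPM in animal 41 among BRD cattle of AAC, where the other 3 lay between 28.58 and 29.72 CPM. CIITA averaged 426.9 CPM in animal 10 among healthy INR cattle, where the other 3 lay between 265.7 and 285.3 CPM. The causes of these differences were not tested.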

How the results depend on the processing

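The 12 of 36 changes from day 0 that were called became 6 without the replicate block, and between 9 and 15 under the other alternatives (another scaling, filters, dispersion, DESeq2, FDR below 0.05, or leaving out the day 60 library of animal 40). Leaving out each animal gave 10 to 13. Calls over all genes moved too. With the block, 5662 to 6787 of 18937 genes were called at a day, and 3167 to 4259 without it. The other alternatives called 4370 to 7026 genes at a day, with numbers tested that differed by filter. Leaving out each animal gave 5117 to 7613 genes. No called value changed sign. Calls of BOLA-DMB, BOLA-DOB and BOLA-DQA5 at day 60 were lost at an FDR below 0.05; without the block, BOLA-DMB and CIITA at day 28 and BOLA-DRB3, BOLA-DQA5, BOLA-DMB and BOLA-DOB at day 60 were lost. BOLA-DMB at day 60 was also lost with no filter. BOLA-DRA at day 60 was called by DESeq2, with the stricter filter, and without any of animals 16, 18, 21, 23, 30, 50, 54 and 57; CIITA at day 13 by DESeq2, with the stricter filter, and without any of animals 18, 30, 34 and 48; BOLA-DQA5 at day 13 by DESeq2 and without any of animals 3, 10, 29, 42, 46 and 50; and BOLA-DMA at day 28 without animal 7. BOLA-DOB at day 60 was lost without any of animals 18, 34, 39, 42 and 46. For the change in BRD minus healthy cattle, DESeq2 called 2 members where the other alternatives, with or without the replicate block, called 0, and leaving out each animal gave 0 to 0. Between labels and between mineral groups 0 members were called under every alternative, including the replicate block (change from day 0), limma voom and each animal left out, and for animal totals, where no block is possible with 1 sum per animal. BOLA-DQA5 was not tested in the pens with both labels at single days. The median share of variance among animals was 51.4% with a prior count of 0.5 too. Mineral groups within a label held 3 to 7 animals, and levels under 0.0949 CPM were below 3 counts in at least 1 library.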

Other observations

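Some rows outside the members, and the sum of the members, held levels that a reader of the table may want to look at again. BOLA-DQA2, the neighbour of BOLA-DQB in the RefSeq table, was at 0 in every library of 2 animals and above 0 in every library of 18, and reached 200.1 CPM. B2M, the light chain of class I, is made by nearly all nucleated cells, and its row held a median of 7.86 CPM at day 0 and between 6.82 and 8.04 CPM later. The 9 members together summed to a median of 7892 CPM at day 0, 6869 at day 13, 7212 at day 28, 8961 at day 45 and 7703 at day 60, with ranges that overlapped at every day.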
